A study of Homo sapiens with 42 samples.

Results

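Many human genes end their messenger RNAs at more than one place. The pairs described here are genes whose 2 most used entries in a deposited table, by mean over its libraries, were both annotated transcript ends. Each end had a mean of at least 10 reads, and the GENCODE 29 positions of the ends lay at least 100 nt apart. Both ends also had to match GENCODE 29 in ID and version. Of the pairs of ends with enough reads, 185 of 319, 224 of 379 and 142 of 234 did so in the cell line, knockdown and compound tables. The end closer to the gene's start is called proximal and the other distal. A total of 243 genes qualified in at least 1 of the 3 tables, of 1000 genes whose leading pair of entries was given an order along the gene. Such pairs made up 185 of 828 genes for the cell lines, 224 of 899 for the knockdown and 141 of 636 for the compound. Both ends lay in 1 last exon in 98, 128 and 78 of them (same last exon), and in different last exons in 87, 96 and 63. The same pair was present in every table for 126 genes, 70 of them in 1 last exon. The pairs were chosen by mean read number over all libraries of a table, so levels of the ends are given as a description. The share of reads at the distal end within a pair was not itself a criterion, but the minimum of 10 reads bears on it. The lower end averaged under 10 reads in at least 1 group of libraries in 90, 102 and 70 of the pairs. Those ends passed through the groups where they were higher, so tests between such groups are not independent of the choice. MALAT1, MRPL11 and ARHGEF3, named below, are among these pairs.

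All libraries were 3′-end libraries (QuantSeq REV, which sequences the last bases before the poly(A) tail) of MDA-MB-231 cells, an established triple-negative breast cancer line. The 42 libraries formed 14 groups of 3. The cell line table held cytoplasmic and nuclear RNA of untreated cells labelled Par, which metastasize poorly, and LM2, which metastasize readily to the lungs. The knockdown table held cytoplasmic and nuclear RNA of poorly metastatic cells with a control (gCTRL) or with HNRNPC knocked down (gHNRNPC); the sample labels do not say how the knockdown was made. The compound table held whole-cell RNA of LM2 cells that received 3 µM of a compound known by the code T4, or an equal volume of its solvent DMSO, for 6 h. Those cells were harvested at 6 h or, after a change of medium, at 24 h or 72 h. All cells grew in DMEM with serum. The labels do not say whether the libraries of a group came from separate cultures, so each p-value reflects variation among these libraries, which may be technical.

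A messenger RNA receives its 3′ end when the cleavage and polyadenylation machinery cuts the nascent transcript a short way after a signal hexamer, usually AATAAA or ATTAAA in the DNA sense strand, and adds a poly(A) tail. When both ends lie in 1 last exon, the choice changes the length of the 3′ untranslated region. When the last exons differ, the choice is tied to splicing and can also change the coded protein. HNRNPC is an abundant nuclear protein that binds runs of uridines in nascent RNA, and is known for keeping cryptic exons out of messenger RNA and for influencing the choice of poly(A) site.

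The last 30 bases before each end are shown for 7 genes, in GRCh38 coordinates and 5′ to 3′ on the strand of the transcript, with AATAAA or ATTAAA in capitals. The first 4 genes are shown because their use of the ends differed after the knockdown, and the others because it differed between nucleus and cytoplasm. In each gene both ends lie in the same last exon. NUP214 ends at chr9:131233678-131233707 (proximal) and chr9:131234634-131234663 (distal), on the plus strand. The MRPL11 ends are chr11:66435834-66435863 and chr11:66435080-66435109, on the minus strand, where the distal end has the lower coordinate. For HDLBP they are chr2:241229212-241229241 and chr2:241227264-241227293, and for ARHGEF3 chr3:56728987-56729016 and chr3:56727421-56727450, all on the minus strand. HNRNPA1 ends at chr12:54284852-54284881 and chr12:54287058-54287087 (plus strand). PPP2R2D ends at chr10:131956526-131956555 and chr10:131959798-131959827, and MALAT1 at chr11:65503731-65503760 and chr11:65506440-65506469, all on the plus strand.
NUP214 proximal: cactATTAAAcagtctgtttccgtacagaa
NUP214 distal: tgttttAATAAAagtttgacatgacattaa
MRPL11 proximal: caggcctgAATAAAcatcctttcttaccca
MRPL11 distal: aagaaAATAAAaacctcatgttatcccacc
HDLBP proximal: ataaacgtccttgactttataaaagccaaa
HDLBP distal: agatgtagcatgctgggactcattttgtca
ARHGEF3 proximal: aagttactttcagttgtcctgctggatttt
ARHGEF3 distal: agtatttcaAATAAAttacattattaagtc
HNRNPA1 proximal: cgtgacgctgAATAAAtgtcttttttttaa
HNRNPA1 distal: ttttttttttAATAAActgtatttaactta
PPP2R2D proximal: actataaagtgtttttaaatccaaacagaa
PPP2R2D distal: accaaaaagttcAATAAAttttaaatgttt
MALAT1 proximal: actttgtctgcgaacactctttaatggacc
MALAT1 distal: tttgtgtAATAAAaatggagaagctctaaa

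NUP214, MRPL11 and HNRNPA1 carried a hexamer 14 to 20 bases before both ends. In HDLBP an AATAAA was present as well, but 25 bases before the proximal end and 40 bases before the distal end, so it lies outside the stretches shown. The proximal end of PPP2R2D had one 38 bases upstream. No hexamer was found within 50 bases of the proximal ends of ARHGEF3 and MALAT1.

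Distal ends carried the signal more often than proximal ends. Either hexamer, searched on the transcript's strand only, lay within the last 50 bases of 77.2% of the 224 distal ends and of 26.8% of the 224 proximal ends in the knockdown table. The share was 26.7% over all 56493 transcript ends of the tables. In the cell line table the shares were 74.1% distal and 24.3% proximal, and for the compound they were 75.2% and 26.2%. Proximal ends held it in 35.2% of same-last-exon pairs and in 15.6% of different-last-exon pairs of the knockdown table. Among proximal transcripts whose end GENCODE tags as not found (41 of 224), 7.32% had it. A run of 5 T (TTTTT), the DNA form of a uridine run, stood in the last 50 bases of 22.3% of distal and 11.2% of proximal ends, against 8.79% of all transcript ends. A run of 6 A (AAAAAA) stood in the 20 bases after the proximal end in 21.9% of the 128 same-last-exon pairs, against 3.41% of 6279 annotated ends that lie inside the last exon of another transcript of their gene. Oligo(dT) primers can start on such a run, and its part in the read numbers was not tested. These matches describe letters near annotated ends and do not show that an end was used.

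Ends in 1 last exon lay a median of 1415 nt apart in the knockdown table (415 to 7753 nt). Ends in different last exons lay 10833.5 nt apart (527 to 311329 nt). NFKBIA, which encodes the NF-kB inhibitor IκBα, was at the short limit of the first class, and OIP5-AS1, a long noncoding RNA, at the long one. ELOB, which encodes elongin B, was the shortest pair of the second class, and NBAS, a protein of Golgi-to-ER transport, the longest. In 85 of the 96 different-last-exon pairs the proximal last exon overlapped an upstream exon of the distal transcript, in 4 it lay in an intron of that transcript, and in 7 the proximal transcript ended before the distal one began. GENCODE classes 219 of the 224 genes as protein coding, but 52 proximal transcripts as retained introns and 29 as targets of nonsense-mediated decay. The distal end had the higher mean in 53 of the 128 same-last-exon pairs and in 57 of the 96 others. Among pairs with the most reads, ZFP36L1, an mRNA decay factor, averaged 2284 reads a library at the proximal and 160 at the distal end in the knockdown table, and EIF4G1, the scaffold of translation initiation, 259 and 838. Just inside the read minimum was FBXO21 (a mean of 10.0 at its lower end), and just outside it YTHDC1 (9.92); in the other tables EIF1AD (10.2) and INF2 (10.1) were just inside, and ZC3H7A (9.92) and WASHC4 (9.94) just outside. The distance limit left out MIGA1 in the compound table, with 43 nt, while PLEKHA2 there had 177 nt.

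Depth was 798052 to 2304698 reads a library, and 2.12 to 3.72% of them lay at the pairs' ends. HNRNPC, the target of the knockdown, stood at 99.1 ± 13.0 CPM (reads scaled to a common library size; SD, n = 3) in gHNRNPC against 508 ± 31.8 CPM in gCTRL cytoplasm (log2 −2.36 ± 0.19, SE; adjusted p = 1.58e-08). In nuclei it stood at 97.6 ± 15.9 against 530 ± 95.4 CPM (−2.44 ± 0.20, adjusted p = 1.21e-08). The nuclear RNA MALAT1 was at 51.6 ± 18.2 CPM in gCTRL nuclei and at 5.33 ± 0.959 CPM in their cytoplasm. The mitochondrial RNA MT-RNR2, listed as a cytoplasmic marker, stood at 7209 ± 523 CPM in gCTRL nuclei and 201 ± 107 CPM in cytoplasm. This RNA thus went with the nuclear fraction in gCTRL cells. VIM, a mesenchymal marker, was at 217 to 1209 CPM in the group means of the cell line table, and the luminal marker ESR1 was at 0 there. Both nuclear libraries numbered 2 of the cell line table stood apart: the gene TUBD1 took 2.26 and 2.22% of their reads, against 0.113 to 0.702% in the other 10 libraries. In the compound table T4 library 3 at 6 h stood apart, with a scaling factor of 0.502. At 6 h TUBD1 took 2.11, 1.96 and 3.19% of reads with T4 and 1.56 to 1.86% with DMSO. At 24 h it took 1.70, 1.95 and 1.75% with T4 and 0.856 to 1.38% with DMSO, and at 72 h the groups overlapped. In the knockdown table it took 0.644 to 0.752% in gCTRL nuclei and 0.146 to 0.189% in their cytoplasm. In gHNRNPC cells the values were 0.586 to 0.782% and 0.106 to 0.131%. The part of TUBD1 in the calls of these comparisons was not tested. In bulk RNA, fewer transcripts with an end cannot be told apart from fewer cells that make them.

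Changes below are in log2 of the ratio of distal to proximal reads, so a positive value is a shift toward the distal end. The standard error beside a change, also that of HNRNPC above, was derived from the test. It is the size of the change divided by the square root of the F statistic of the edgeR test. A call is an adjusted p under 0.05 in the edgeR quasi-likelihood test of end by group, Benjamini-Hochberg adjusted over every gene with an ordered pair of entries in the table. Levels are percents of the reads at both ends of a pair that fell on the distal end.

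After knockdown of HNRNPC, reads in the cytoplasm moved mostly toward distal ends. Of the 224 pairs, 20 shifted toward the distal and 5 toward the proximal end, while 10.0% and 3.11% of all 899 genes tested were called in these directions (13.1% in all). At 11.2% the share of pairs called was near that background. The median change of the pairs was +0.38 and that of all genes tested +0.37. Of the 128 same-last-exon pairs 19 were called (16 distal, 3 proximal), and of the 96 different-last-exon pairs 6 (4 and 2). In nuclei 6 pairs shifted toward the distal and 4 toward the proximal end (4.46%, against 4.45% of all genes tested, 2.89% distal and 1.56% proximal), and the medians were +0.13 and +0.16.

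NUP214 encodes a nucleoporin on the cytoplasmic face of the nuclear pore, and its ends are 956 nt apart in 1 last exon. The distal end took 36.7, 12.5 and 36.7% of the reads in the 3 gCTRL cytoplasm libraries (28.7 ± 14.0%) and 90.4, 91.2 and 86.2% in gHNRNPC cytoplasm (89.3 ± 2.70%). Every knockdown library lay above every control library, and the main end of the gene changed from proximal to distal (+4.31 ± 0.56, adjusted p = 5.02e-05). In nuclei the shares were 57.1, 68.0 and 45% with the control and 76.1, 79.6 and 89.3% with the knockdown. Those groups did not overlap either, but the shift was not called (+1.73 ± 0.55, adjusted p = 0.0741). The knockdown effect differed between the fractions by −2.58 ± 0.80, which was not called (adjusted p = 0.396). Total NUP214 RNA changed by +0.58 in cytoplasm and was not called (adjusted p = 0.0721).

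MRPL11, a protein of the large mitochondrial ribosomal subunit, uses its distal end rarely. That end took 0.883, 1.00 and 0.496% of reads in gCTRL cytoplasm and 3.76, 6.33 and 5.38% in gHNRNPC cytoplasm. The groups were apart by a wide margin on this scale, and the shift was +2.70 ± 0.49 (adjusted p = 0.000976). In nuclei the distal end had 3, 0 and 0 reads in the control libraries and 5, 13 and 8 in the knockdown libraries. From the summed reads the ratio of distal to proximal was 8.70 times as high with the knockdown (95% exact conditional interval 2.64 to 45.2, counting error only). That call (+3.03 ± 0.77, adjusted p = 0.0227) was lost in 4 of the 6 fits that left out 1 library of either group.

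HDLBP encodes vigilin, an RNA-binding protein with many KH domains, and its ends are 1948 nt apart. In gCTRL cytoplasm 37.3, 20.4 and 41.0% of reads were distal, and in gHNRNPC cytoplasm 61.0, 82.4 and 69.7%. All knockdown libraries were higher than all controls, with library 2 the lowest control and the highest knockdown library (+2.41 ± 0.41, adjusted p = 0.000585). Nuclei gave 64.2, 66.8 and 69.0% against 84.8, 89.6 and 80.0% (+1.53 ± 0.42, adjusted p = 0.0388), again without overlap. This nuclear call held in 1 of 6 fits without a library. HDLBP RNA as a whole rose in both fractions, by +0.56 (adjusted p = 0.0419) and +0.88 (adjusted p = 0.00436).

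**Figure D1:**
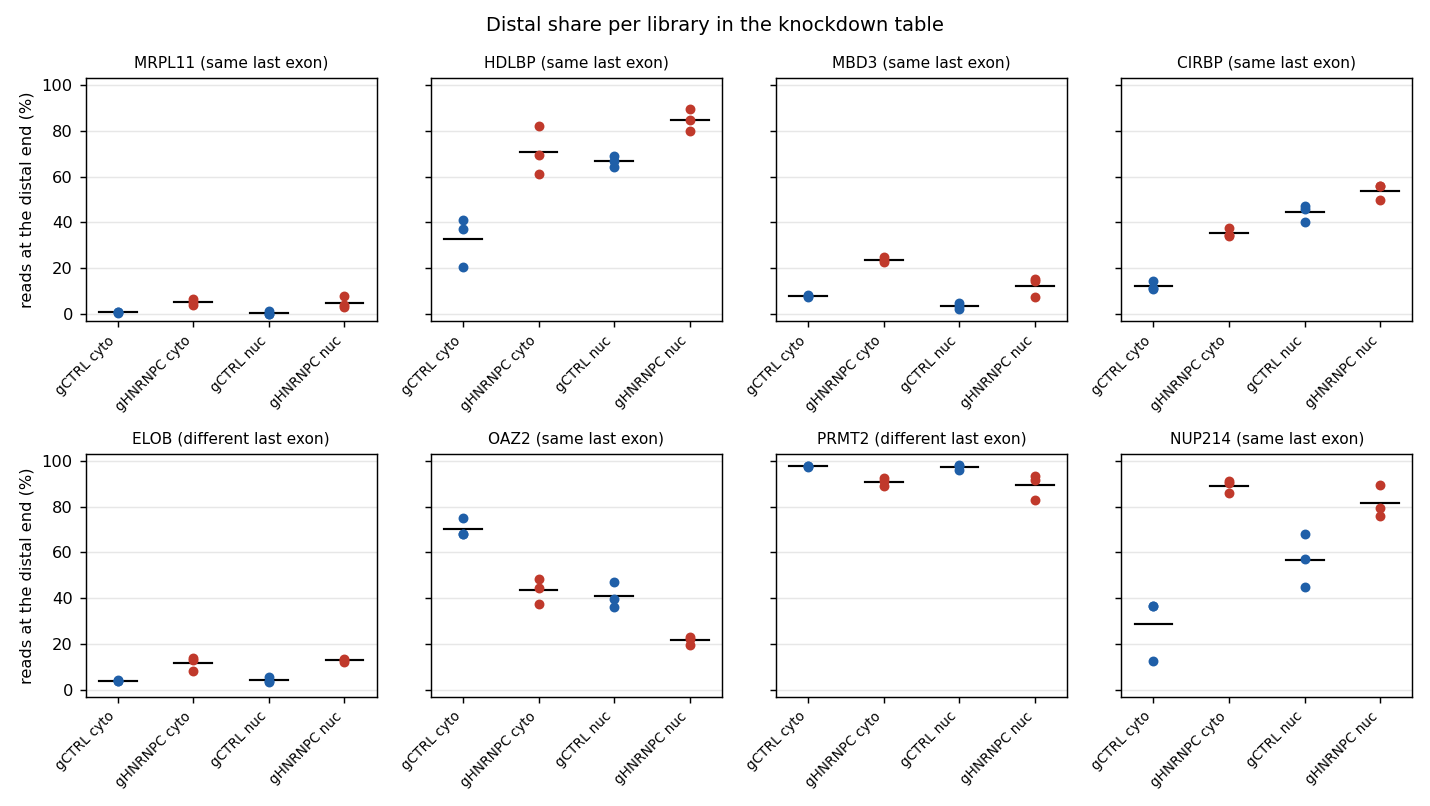
Percent of reads at the distal end (y axis) in each gCTRL (blue) and gHNRNPC (red) library, in cytoplasm and nucleus (x axis), for MRPL11, HDLBP, MBD3, CIRBP, ELOB, OAZ2, PRMT2 and NUP214; bars are means of 3 libraries. In MBD3 the red cytoplasmic points sit between 22.6 and 25% and the blue ones between 7.31 and 8.13%, while in OAZ2 the red points lie under the blue ones.

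Like HDLBP and MRPL11, MBD3 and ELOB shifted toward the distal end in both fractions. MBD3 is a subunit of the NuRD chromatin complex, and its ends (chromosome 19, 1576640 and 1573596) are 3044 nt apart. Its distal share was 7.31, 8.13 and 7.79% in gCTRL and 23.6, 22.6 and 25% in gHNRNPC cytoplasm (+1.89 ± 0.31, adjusted p = 0.000457). In nuclei it was 2.35, 3.32 and 4.98% against 7.30, 15.4 and 14.5% (+1.91 ± 0.39, adjusted p = 0.00675). Knockdown libraries exceeded controls throughout, and both calls held whichever library was left out. ELOB encodes elongin B, a subunit of elongin and of cullin ubiquitin ligases, and its last exons differ. Its distal share was 3.57, 4.03 and 3.83% against 13.7, 8.19 and 12.8% in cytoplasm (+1.71 ± 0.30, adjusted p = 0.000817). In nuclei the values were 3.72, 3.41 and 5.66% against 13.3, 12 and 13.1% (+1.72 ± 0.40, adjusted p = 0.0144). Here too the groups were separate in both fractions, though the nuclear call held in 4 of 6 fits without a library (adjusted p = 0.0716 without gCTRL library 2 and 0.0534 without gHNRNPC library 1), and total ELOB RNA fell in cytoplasm (−0.73, adjusted p = 0.00319).

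OAZ2 and PRMT2 moved the other way in both fractions. OAZ2 encodes an antizyme that inhibits ornithine decarboxylase, and its ends (chromosome 15, 64688485 and 64687576) are 909 nt apart. In cytoplasm the distal share fell from 67.9, 75.1 and 67.9% to 48.5, 37.4 and 44.4% (−1.63 ± 0.28, adjusted p = 0.000705). In nuclei it went from 36.1, 47.1 and 39.8% to 22.1, 19.7 and 22.9% (−1.33 ± 0.32, adjusted p = 0.0177). No knockdown library reached a control library of its fraction, and the nuclear call held in 3 of 6 fits without a library. PRMT2, a protein arginine methyltransferase, has a proximal end in a transcript that GENCODE classes as a retained intron. Its distal share was 97.6, 97.7 and 98% in gCTRL and 92.6, 91.0 and 89.0% in gHNRNPC cytoplasm (−2.12 ± 0.39, adjusted p = 0.00101). In nuclei it was 96.3, 97.8 and 98.3% against 91.7, 83.1 and 93.5% (−2.05 ± 0.47, adjusted p = 0.0138). The nuclear call of PRMT2 held in 4 of 6 fits without a library (adjusted p = 0.071 without gCTRL library 2 and 0.0824 without gHNRNPC library 2). The proximal end remained the minor one in every library, and total PRMT2 RNA fell in cytoplasm (−0.81, adjusted p = 0.0018).

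Calls in cytoplasm alone included CIRBP, HNRNPA1, SRSF10 and DDX54 toward the distal end. CIRBP, a cold-inducible RNA-binding protein, had 11.4, 14.3 and 10.7% of reads at the distal end in gCTRL and 37.8, 34.7 and 34.1% in gHNRNPC cytoplasm (+2.0 ± 0.27, adjusted p = 8.23e-05). The groups were far apart, whereas in nuclei they were closer (40.2, 46.0 and 47.3% against 56.0, 49.8 and 56.1%; +0.55 ± 0.28, adjusted p = 0.32). HNRNPA1, a shuttling hnRNP protein and a relative of the knockdown's target, had 0.916, 2.19 and 1.89% against 5.83, 6.24 and 5.96% (+1.95 ± 0.44, adjusted p = 0.00619). All 3 knockdown libraries were higher than the controls, though the distal end stayed the minor one. SRSF10, a splicing factor of the SR family, had 34.6, 23.5 and 38.1% against 61.3, 68.6 and 58.9% (+1.86 ± 0.39, adjusted p = 0.00271). Only 41.7% of the SRSF10 reads lay in whole-number entries, that is, were not divided by the authors' estimation between entries of shared sequence. DDX54, a DEAD-box helicase, had 8.11, 8.08 and 5.81% against 20.4, 18.4 and 20.2% (+1.63 ± 0.35, adjusted p = 0.00383), and GENCODE tags its proximal end as incomplete. Calls for CIRBP, HNRNPA1, SRSF10 and DDX54 held in all 6 fits without a library, as did those for NUP214, MRPL11, HDLBP, MBD3, ELOB, OAZ2 and PRMT2 in cytoplasm.

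Less firmly, 3 pairs in cytoplasm moved toward the proximal end and NAIF1 toward the distal end. PPP4R3A, a regulatory subunit of protein phosphatase 4, had 51.7, 56.9 and 36.8% of reads distal in gCTRL and 23.1, 19.1 and 20.4% in gHNRNPC (−1.84 ± 0.46, adjusted p = 0.0118). GATAD2A, another NuRD subunit, had 94.1, 95.7 and 93.0% against 90.1, 83.3 and 85.8% (−1.38 ± 0.35, adjusted p = 0.0118), and its total RNA fell in cytoplasm (−0.95, adjusted p = 0.00064) and in nuclei (−0.95, adjusted p = 0.00146). TIMM50, of the mitochondrial import machinery, had 89.6, 92.5 and 88.7% against 85.6, 72.7 and 81.5% (−1.19 ± 0.36, adjusted p = 0.032). In each of these 3 genes the knockdown libraries lay below the controls. NAIF1 had 16.5, 23.4 and 40.6% against 52.5, 54.4 and 48.0% (+1.54 ± 0.48, adjusted p = 0.0391). Leaving out 1 library ended the call in 2 of 6 fits for PPP4R3A, 3 for GATAD2A, 4 for TIMM50 and 5 for NAIF1. Reads of TIMM50 and NAIF1 lay mostly in divided entries, with 8.38 and 19.6% in whole-number ones.

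In nuclei alone, ARHGEF3, CD44 and KIF1B were called. ARHGEF3, an exchange factor for RhoA, had 85.6, 85.7 and 92.3% of reads distal with the control and 96.4, 96.4 and 98.1% with the knockdown (+2.21 ± 0.63, adjusted p = 0.0458). The knockdown libraries had 2 proximal reads each and were all higher. CD44, the hyaluronan receptor, had 64.8, 56.8 and 56.6% against 40.5, 31.1 and 45.2% (−1.21 ± 0.31, adjusted p = 0.0265). KIF1B, a kinesin, had 33.3, 30.1 and 34.7% against 8.79, 16.2 and 13.6% (−1.73 ± 0.46, adjusted p = 0.0279). In both the knockdown libraries were all lower. Calls held in 1, 2 and 0 of 6 fits without a library, in that order. The proximal ends of ARHGEF3 and KIF1B were followed by a run of 6 A within 20 bases, and that of CD44 was not. The part of these runs in the calls was not tested.

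Across the pairs, 17 of the 20 called toward the distal end in cytoplasm had a positive change in nuclei and 5 were called there, and all 5 proximal ones had a negative change with 2 called. None was called in opposite directions. Over all 224 pairs 133 had a positive change in nuclei, and 536 of all 899 genes tested did. The difference of the knockdown effect between fractions was tested for every pair and called for 0 of 224 by edgeR (20 at an unadjusted p under 0.05) and for 0.0% of all genes tested. By DESeq2 the count was 0 as well. Hexamers at both ends were present in 41 pairs, of which 7 moved distally and 4 proximally in cytoplasm. In the 132 pairs with a hexamer at the distal end only, 10 and 1 did. With one at the proximal end only (19 pairs) 1 and 0 did, and with none (32 pairs) 2 and 0. Over all 224 pairs 20 and 5 did, and 10.0 and 3.11% of all genes tested. Differences between these sets were not tested. Leaving out single libraries changed the cytoplasmic count from 25 to between 13 and 30, and it was 14, 13 and 14 without gCTRL library 2, gHNRNPC library 2 or gHNRNPC library 3. In nuclei 10 calls became 1 to 8, namely 6 and 1 without gCTRL libraries 1 and 2, and 3 and 2 without gHNRNPC libraries 1 and 2.

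**Figure D2:**
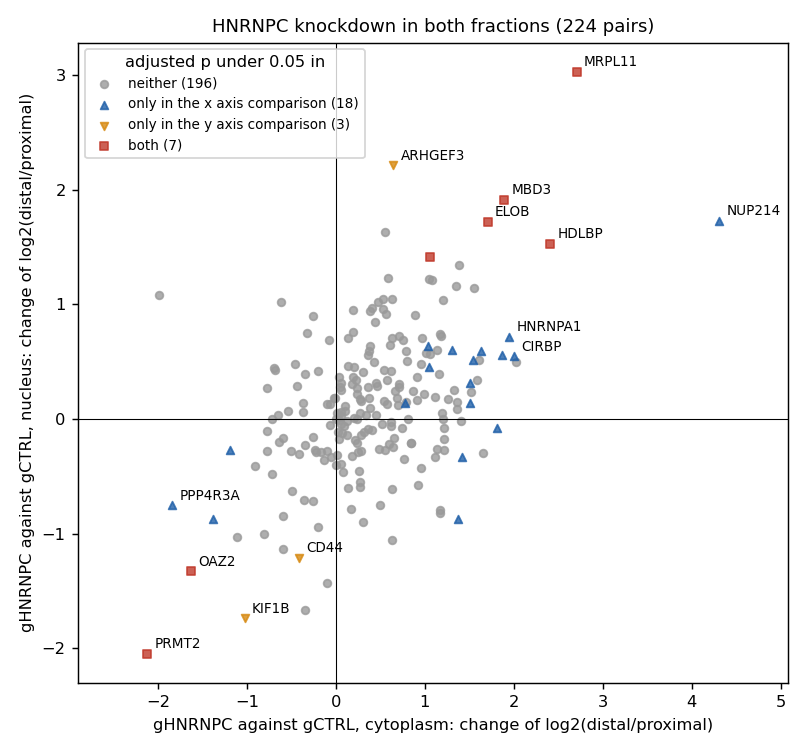
Change of log2(distal/proximal) after the knockdown in cytoplasm (x axis) and nucleus (y axis), one point per pair (224), coloured by where it was called. In all, 7 pairs were called in both fractions, 18 in cytoplasm only and 3 in the nucleus only, and no pair was called in opposite directions.

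Nuclear and cytoplasmic RNA were compared within each kind of cells. In gCTRL cells 52 pairs were more distal and 22 more proximal in the nucleus (33.0%, against 31.3% of all genes tested, 22.6% distal and 8.68% proximal). In Par cells the counts were 17 and 5 (11.9%, against 13.3%, 9.78% and 3.5%), and in LM2 cells 48 and 16 (34.6%, against 37.3%, 27.7% and 9.66%). In gHNRNPC cells 17 were more distal and 20 more proximal (16.5%, against 14.6%, 8.57% and 6.01%). Over both directions the pairs' shares were thus near those of all genes tested in each case. In gHNRNPC cells the pairs had more proximal than distal calls, while all genes tested had more distal ones. There 21.9% of same-last-exon and 9.38% of different-last-exon pairs were called. Median changes of the pairs were +0.29 in gCTRL, +0.22 in Par, +0.34 in LM2 and +0.06 in gHNRNPC cells, and those of all genes tested +0.36, +0.25, +0.48 and +0.16.

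**Figure D3:**
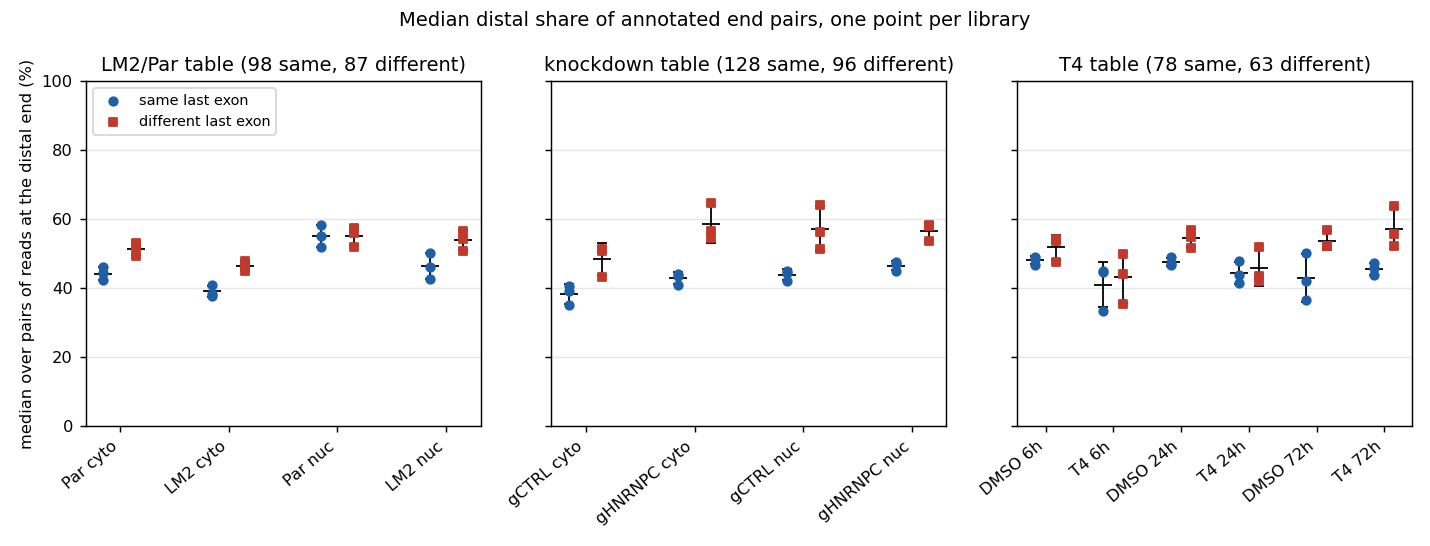
Median percent of reads at the distal end over same-last-exon and different-last-exon pairs in each library (points, y axis) by group (x axis), with mean ± SD of 3 libraries. In gCTRL cells the same-last-exon median was 38.2 ± 2.84% in cytoplasm and 43.8 ± 1.58% in the nucleus, and in Par cells 44.1 ± 1.88% and 55.1 ± 3.09%.

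The different-last-exon median was 48.3 ± 4.58% in cytoplasm and 57.2 ± 6.51% in nuclei of gCTRL cells, and 51.4 ± 1.83% and 55.2 ± 2.86% in Par cells. In LM2 cells the same-last-exon medians were 39.0 ± 1.71% and 46.3 ± 3.77%, and the others 46.4 ± 1.5% and 53.9 ± 2.94%. With the knockdown the cytoplasmic medians were 42.8 ± 1.72% and 58.5 ± 5.44%, and the nuclear ones 46.5 ± 1.34% and 56.6 ± 2.55%. The nuclear medians lay above the cytoplasmic ones in every library for same-last-exon pairs in all 4 kinds of cells. For different-last-exon pairs the libraries overlapped between fractions in Par and gHNRNPC cells and did not in gCTRL and LM2 cells.

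A set of 171 pairs was the same in the cell line and knockdown tables. Of the 44 called more distal in gCTRL nuclei, all 44 had a positive change in Par cells and 14 were called there. Of the 18 called more proximal, all 18 had a negative change in Par cells and 4 were called. The Par and gCTRL libraries come from different tables and share no library. In all 4 kinds of cells 7 pairs were called more distal in the nucleus (CIRBP, HNRNPA1, RC3H2, RPL23, RUNX1, SLC25A26 and TOP3A) and 3 more proximal (CNIH4, OAZ2 and UBR4). Some of these calls ended when 1 library was left out of the 6 compared. In Par cells SLC25A26 held in 1 of 6 such fits, OAZ2 in 2, UBR4 in 3, and RC3H2 and TOP3A in 4. HNRNPA1, RPL23 and CNIH4 held in all 6 there. Since only 3 pairs were called without Par cytoplasm library 3, the calls of CIRBP and RUNX1 ended in that fit. In LM2 cells SLC25A26 and UBR4 held in 3 of 6. A positive change in all 4 was present in 71 pairs and a negative one in 38.

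**Figure D4:**
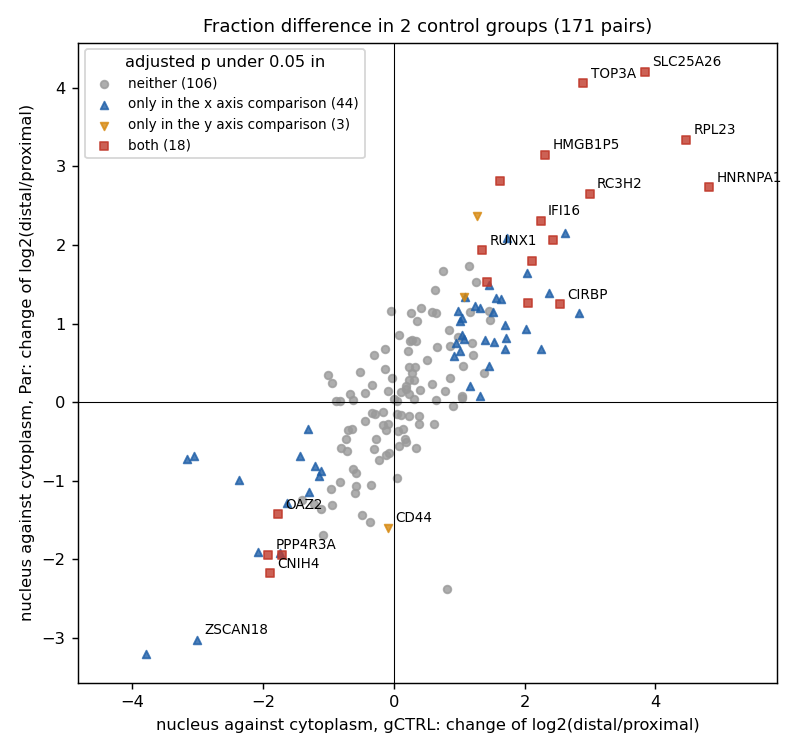
Change of log2(distal/proximal) from cytoplasm to nucleus in gCTRL cells (x axis) and Par cells (y axis), one point per pair shared by both tables (171), coloured by where it was called. Called in both were 18 pairs, in gCTRL only 44 and in Par only 3, and those called in both lie in the quadrants of equal sign.

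HNRNPA1 had one of the clearest differences. Its distal end, 2206 nt downstream, took 0.916, 2.19 and 1.89% of reads in gCTRL cytoplasm and 22.8, 31.3 and 43.2% in gCTRL nuclei (+4.83 ± 0.41, adjusted p = 3.57e-08). Par cells had 1.26, 2.80 and 1.88% in cytoplasm and 13.6, 9.68 and 12% in nuclei (+2.74 ± 0.36, adjusted p = 0.000787). LM2 cells had 2.21, 1.11 and 1.68% and 17.2, 12.8 and 15.3% (+3.39 ± 0.39, adjusted p = 8.23e-05). The distal end thus stayed at 2.80% or less of cytoplasmic reads in all 3 and held 9.68 to 43.2% of nuclear reads, with no overlap. With the knockdown the values were 5.83, 6.24 and 5.96% in cytoplasm and 48.1, 48.1 and 34.8% in nuclei (+3.60 ± 0.37, adjusted p = 8.25e-07). These calls held in all 6 fits without a library in each of the 4 comparisons.

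RPL23 encodes a ribosomal protein, and both transcripts of its pair are classed as retained introns. In gCTRL cells 34.4, 22.7 and 41.7% of the pair's reads were distal in cytoplasm and 89.4, 92.6 and 92.9% in nuclei (+4.47 ± 0.53, adjusted p = 2.7e-06). In Par cells the values were 27.4, 25.4 and 27.4% and 76.9, 93.8 and 70.4% (+3.34 ± 0.52, adjusted p = 0.00291). Nuclear libraries were all higher, on 16 to 56 reads each. RC3H2, which encodes the mRNA decay factor roquin-2, has ends 4881 nt apart. Its distal share was 63.0, 38.1 and 66.5% in gCTRL cytoplasm and 94.3, 84.2 and 94.0% in nuclei (+2.99 ± 0.54, adjusted p = 0.000411). In LM2 cells it was 49.7, 47.4 and 41.0% against 100, 96.0 and 95% (+5.17 ± 0.62, adjusted p = 9.19e-05). Nuclear libraries were all higher in both, and in Par cells the values were 77.9, 80.6 and 67.2% against 92.8, 97.5 and 95.7% (+2.65 ± 0.58, adjusted p = 0.0168).

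CIRBP had 11.4, 14.3 and 10.7% of reads distal in gCTRL cytoplasm and 40.2, 46.0 and 47.3% in nuclei (+2.54 ± 0.28, adjusted p = 8.53e-07). This comparison and that of the knockdown in cytoplasm share the gCTRL cytoplasm libraries. In Par cells CIRBP had 8.31, 10.9 and 7.87% against 23.2, 15 and 18.8% (+1.24 ± 0.33, adjusted p = 0.0297), with every nuclear library above every cytoplasmic one. RUNX1, a transcription factor, had 80.3, 76.1 and 82.9% against 93.4, 86.1 and 92.7% in gCTRL cells (+1.35 ± 0.43, adjusted p = 0.0232). In Par cells it had 70.8, 64.3 and 68.9% against 84.8, 93.8 and 91.2% (+1.93 ± 0.49, adjusted p = 0.0251). Its longer form was the main one in both fractions and took a larger share in nuclei.

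For SLC25A26 and TOP3A the reads were largely or partly divided between entries. SLC25A26, the mitochondrial carrier of S-adenosylmethionine, had 74.5, 83.8 and 78.3% distal in gCTRL cytoplasm and 97.3, 99.2 and 98.4% in nuclei (+3.84 ± 0.46, adjusted p = 2.7e-06), with 9.35% of its reads in whole-number entries. TOP3A, a topoisomerase, had 5.01, 5.89 and 5.42% against 38.8, 23.5 and 29.6% (+2.90 ± 0.44, adjusted p = 5.79e-05), with 84.3% in whole-number entries. In Par cells the nuclear TOP3A values were 15.4, 80.4 and 30% and those of SLC25A26 94.9, 99.7 and 96.7%. The nuclear library numbered 2, in which TUBD1 had a share of reads that was high for the cell line table, was the highest for both genes. The changes in Par cells were +4.06 ± 0.97 for TOP3A (adjusted p = 0.0228) and +4.21 ± 1.11 for SLC25A26 (adjusted p = 0.0283). Without both nuclear libraries numbered 2 they were +2.78 (adjusted p = 0.000366) and +2.63 (adjusted p = 0.0212). Without the Par one alone they were +2.77 (adjusted p = 0.0203) and +2.61 (adjusted p = 0.1), so the SLC25A26 call ended there. ZSCAN18, a zinc finger gene with 15.2% of its reads in whole-number entries there, was lowest in the same library (30, 2.14 and 20.3% distal in Par nuclei; 56.9, 54.2 and 50.8% in cytoplasm).

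Toward the proximal end, CNIH4 and UBR4 joined OAZ2. CNIH4, a cornichon protein of cargo export from the ER, had 32.5, 19.4 and 15.3% distal in gCTRL cytoplasm and 7.46, 6.91 and 7.09% in nuclei (−1.89 ± 0.38, adjusted p = 0.0011). In Par cells it had 13.9, 9.61 and 17.2% against 3.85, 3.69 and 2.40% (−2.18 ± 0.36, adjusted p = 0.00349). Its proximal last exon lies in an intron of the distal transcript, and every nuclear library was lower. OAZ2 had 67.9, 75.1 and 67.9% against 36.1, 47.1 and 39.8% in gCTRL cells (−1.78 ± 0.30, adjusted p = 0.000193) and 66.5, 64.1 and 58.6% against 50, 35.7 and 30.6% in Par cells (−1.43 ± 0.37, adjusted p = 0.0266). UBR4, a large ubiquitin ligase whose proximal transcript ends 46690 nt upstream and is tagged as incomplete, had 94.8, 93.8 and 92.7% against 81.9, 80.3 and 84.0% (−1.70 ± 0.35, adjusted p = 0.00122). In Par cells UBR4 had 95.3, 98.5 and 96.2% against 85.5, 89.8 and 89.4% (−1.95 ± 0.47, adjusted p = 0.0228). Nuclear values were below the cytoplasmic ones in all of these.

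Other large differences in the knockdown table included PPP2R2D and MALAT1, which had no such pair in the cell line table, and NOSIP and LIN52, which did. PPP2R2D, a regulatory subunit of protein phosphatase 2A, had 9.80, 8.77 and 10.5% of reads distal in gCTRL cytoplasm and 45.5, 53.1 and 39.2% in nuclei (+2.92 ± 0.48, adjusted p = 0.000154). In gHNRNPC cells it had 5.88, 7.89 and 8.33% against 65.0, 53.6 and 57.9% (+4.0 ± 0.56, adjusted p = 2.86e-05). The fractions did not overlap in either. MALAT1 had 0, 0 and 2 distal reads in gCTRL cytoplasm, of 24 in all, and 57.6, 40.9 and 76.0% distal in nuclei (+3.74 ± 1.05, adjusted p = 0.0112). From summed reads its ratio was 15.8 times as high in nuclei (95% exact conditional interval 3.69 to 143). Its distal end passed the read minimum through groups other than gCTRL cytoplasm, so this contrast is given as a description. NOSIP, a ubiquitin ligase, moved proximally, with 98.6, 97.1 and 96.6% against 84.3, 76.8 and 78.7% (−3.16 ± 0.43, adjusted p = 1.34e-05). LIN52, of the DREAM complex, did so as well (19.3, 14.3 and 22.4% against 1.13, 1.06 and 2.71%; −3.79 ± 0.51, adjusted p = 1.23e-05), but 7.64% of its reads lay in whole-number entries. Neither was called in the cell line table, where NOSIP had −0.72 ± 0.82 in Par (adjusted p = 0.587) and −0.69 ± 0.84 in LM2 cells (adjusted p = 0.549). LIN52 had −3.20 ± 1.28 (adjusted p = 0.104) and −1.83 ± 1.17 (adjusted p = 0.241) there.

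Comparing gCTRL with gHNRNPC cells, 17 of the 52 pairs more distal in gCTRL nuclei were also called in gHNRNPC cells, and 50 had the same sign. Of the 22 more proximal ones 13 were called and 20 had the same sign. Over all 224 pairs 118 had a positive change in gHNRNPC cells, as did 528 of 899 genes tested. The difference between the contrasts in gCTRL and gHNRNPC cells is the interaction given above, which was called for 0 pairs.

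The Par counts of this section depended on single libraries. Without both nuclear libraries numbered 2 (a choice made after seeing the data), Par had 51 pairs called instead of 22 and LM2 80 instead of 64. All 22 of Par and 57 of the 64 of LM2 were among them, and 25.1 and 44.0% of all genes tested were called. Leaving out Par cytoplasm library 1 or 3 left 8 and 3 calls, and Par nuclear library 1 or 3 left 13 and 5.

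Between LM2 and Par cells, no pair was called in either fraction in the fit of all 12 libraries. The count was 0 of 185 by edgeR in cytoplasm (38 at an unadjusted p under 0.05; 0.0% of all 828 genes tested) and 0 in nuclei (8 unadjusted; 0.0%). DESeq2 called 7 in cytoplasm and 0 in nuclei. The median change was −0.23 in cytoplasm and −0.12 in nuclei, against −0.18 and 0.00 over all genes tested, so the cytoplasmic pairs leaned toward proximal ends in LM2 cells, as did all genes tested.

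The smallest adjusted p in cytoplasm belonged to PPP6R3 and HDLBP. PPP6R3, a regulatory subunit of protein phosphatase 6, has ends 742 nt apart on chromosome 11. Its distal share was 90.5, 90.3 and 88.1% in Par and 66.3, 68.1 and 73.7% in LM2 cytoplasm (−1.93 ± 0.38, adjusted p = 0.0614). HDLBP had 46.4, 50.3 and 33.1% against 20.9, 20.1 and 15.6% (−1.72 ± 0.38, adjusted p = 0.0614). In both genes all LM2 libraries were below all Par libraries, though neither passed the threshold. In nuclei neither moved that way: PPP6R3 had 94.6, 96.7 and 97.2% in Par and 95.7, 98.4 and 95.9% in LM2 (+0.20 ± 0.44), and HDLBP 65.8, 66.4 and 61.2% against 64.7, 77.3 and 60.4% (+0.19 ± 0.39). The difference between fractions was +2.13 ± 0.58 for PPP6R3 and +1.91 ± 0.54 for HDLBP, with an adjusted p of 0.468 for each. Over the pairs this difference was called for 0 (12 unadjusted).

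The count in cytoplasm differed between fits. A fit of the cytoplasmic libraries alone called 32 pairs, 4 distal and 28 proximal, and 20.5% of all genes tested. PPP6R3 (−1.94 ± 0.30, adjusted p = 0.00112) and HDLBP (−1.73 ± 0.29, adjusted p = 0.00203) were among them. So were RC3H2 (77.9, 80.6 and 67.2% distal in Par against 49.7, 47.4 and 41.0% in LM2; −1.87 ± 0.29, adjusted p = 0.00129) and CHD4, the ATPase of NuRD (28.2, 38.7 and 13.5% against 9.62, 8.06 and 8.0%; −1.99 ± 0.55, adjusted p = 0.0189). RC3H2 and CHD4 are named after their values were seen, and in both the LM2 libraries lay below the Par libraries. A fit without the 2 nuclear libraries numbered 2 called 20 pairs in cytoplasm (2 distal, 18 proximal; 13.8% of all genes tested), PPP6R3, HDLBP, RC3H2 and CHD4 included. Without Par cytoplasm library 3 the count in the full fit was 10.

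In nuclei CHD4 and RAD1 had the smallest p-values. CHD4 had 37.3, 26.6 and 28.1% of reads distal in Par and 13.2, 14.4 and 10.1% in LM2 nuclei (−1.63 ± 0.45, adjusted p = 0.758). RAD1, a clamp protein of the DNA damage checkpoint, had 53.3, 82.7 and 72.9% against 76.2, 98.2 and 93.9% (+2.35 ± 0.77, adjusted p = 0.873). Only for CHD4 were the groups apart. For RAD1 they overlapped, while each LM2 library was higher than the Par library of the same number (+2.3, adjusted p = 0.998 with library number as a block). The biological coefficient of variation of the fit was 29.2% here, 21.0% for the knockdown and 23.2% for the compound.

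T4 changed few pairs. At 6 h 2 were called toward the distal and 1 toward the proximal end of 141 (2.13%, against 5.66% of all 636 genes tested, 1.42% distal and 4.25% proximal). At 24 h 1 and 2 were called (2.13%, against 2.67%, 1.42% and 1.26%), and at 72 h 0 (5 at an unadjusted p under 0.05; 0.0%; 0 by DESeq2). The median of the pairs was −0.38 at 6 h, −0.30 at 24 h and +0.14 at 72 h, close to the −0.34, −0.26 and +0.05 of all genes tested. Of the 141 pairs, 42, 45 and 80 had a positive change at the 3 harvests.

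**Figure D5:**
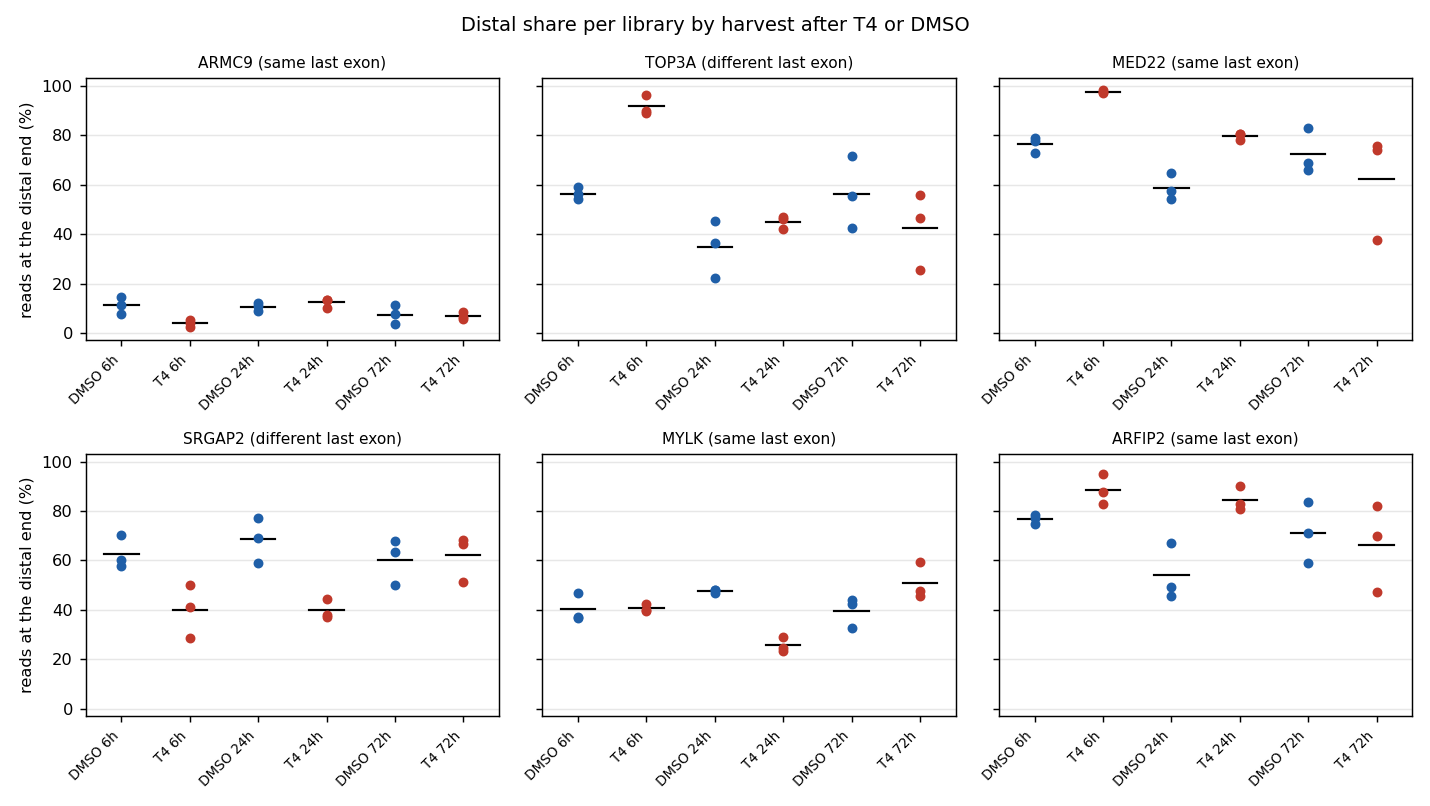
Percent of reads at the distal end (y axis) in DMSO and T4 libraries at 6, 24 and 72 h (x axis) for ARMC9, TOP3A, MED22, SRGAP2, MYLK and ARFIP2; points are libraries and bars means of 3. MED22 with T4 at 6 h lies between 97.1 and 98.3%, above all DMSO libraries of that time, and SRGAP2 and MYLK with T4 at 24 h lie below theirs.

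MED22, a subunit of Mediator, had 77.5, 72.9 and 79.0% of reads distal with DMSO and 98.3, 97.1 and 97.5% with T4 at 6 h (+3.65 ± 0.60, adjusted p = 0.000619). TOP3A had 56.2, 54.1 and 58.9% against 89.9, 88.9 and 96.1% (+3.11 ± 0.54, adjusted p = 0.001). ARMC9, a protein of the ciliary base, had 14.6, 7.60 and 11.5% against 5.32, 2.48 and 3.92% (−1.63 ± 0.44, adjusted p = 0.0307). No T4 library overlapped a DMSO library in the 3 genes. Of their reads 24.7, 46.8 and 5.02%, in that order, lay in whole-number entries. TUBD1 moved with these values, as given above, and its part in the result was not tested. MED22 and TOP3A held in all 6 fits without a library and ARMC9 in 3, and without T4 library 3, the one that stood apart, 5 pairs were called at 6 h.

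By 24 h MED22 (57.3, 64.7 and 54.0% against 77.9, 80.4 and 80.3%; +1.44 ± 0.49, adjusted p = 0.119) and TOP3A (36.5, 45.4 and 22.2% against 46.9, 42.0 and 45.9%; +0.64 ± 0.49, adjusted p = 0.479) were not called. At 72 h their T4 libraries overlapped those of DMSO. The T4 effect at 72 h was below that at 6 h by 4.27 ± 0.79 for MED22 (adjusted p = 0.00374) and by 3.94 ± 0.74 for TOP3A (adjusted p = 0.00379). These were the 2 pairs called for that difference (1.42%, against 1.73% of all genes tested, 0.943% in their direction), and none was called between 24 and 6 h (8 unadjusted; 1.1% of all genes tested; 0 by DESeq2).

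Reads of SRGAP2 and MYLK lay wholly in whole-number entries. SRGAP2, a GTPase-activating protein that shapes membrane protrusions, has last exons 71539 nt apart on chromosome 1. At 24 h its distal share was 77.3, 69.2 and 59.0% with DMSO and 38.1, 37.2 and 44.3% with T4 (−1.71 ± 0.44, adjusted p = 0.0404). MYLK, the myosin light chain kinase, had 46.8, 47.9 and 47.9% against 24.5, 23.3 and 29.1% (−1.38 ± 0.34, adjusted p = 0.04). In both the T4 libraries were all lower at 24 h. At 72 h the SRGAP2 groups overlapped (63.3, 67.7 and 50% against 68.3, 66.7 and 51.2%), and MYLK stood higher with T4 (32.7, 43.8 and 42.3% against 47.5, 59.5 and 45.5%; +0.64 ± 0.32, adjusted p = 0.994). ARFIP2, a protein of trans-Golgi membranes, rose at 24 h from 49.1, 67.1 and 45.5% to 80.8, 90.1 and 82.9% (+2.24 ± 0.58, adjusted p = 0.0404), with 25.2% of its reads in whole-number entries. The 24 h calls were close to the threshold: leaving out any 1 library left 0 or 1 of them. Within the last 50 bases, ARFIP2 had a hexamer at the proximal end only, SRGAP2 at the distal end only and MYLK at both ends.

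At 72 h the smallest p-values were those of NOSIP (93.0, 92.8 and 90.6% with DMSO, 94.9, 98.2 and 95.7% with T4; +1.11 ± 0.46) and CD44 (59.3, 59.2 and 60.7% against 44.7, 37.0 and 55.7%; −0.84 ± 0.35), with an adjusted p of 0.994 for both. The groups were apart in both genes, by less than the test required.

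Over both directions, total RNA of the paired genes changed about as often as that of all genes tested in most comparisons. With T4 at 6 h and 24 h the shares were higher in the full fit (20.6% against 16.0%, and 7.8% against 5.24%). Without 1 library the paired counts were 16 to 28 and 3 or 4 instead of 29 and 11. No difference from all genes tested is read from these shares. In knockdown cytoplasm more paired genes fell than rose, while all genes tested rose and fell about equally often. These totals sum all entries of a gene, including positions whose gene was taken from the order of the listing. After the knockdown 19 of 224 rose and 40 fell in cytoplasm (26.3%, against 23.4% of 9351 genes tested, 11.7% higher and 11.7% lower). In nuclei 13 rose and 16 fell (12.9%, against 14.1%, 8.43% and 5.7%). In LM2 against Par cells 8 rose and 12 fell in cytoplasm (10.8%, against 10.9% of 8542, 3.98% and 6.92%) and 2 and 3 in nuclei (2.7%, against 2.22%, 1.15% and 1.08%). With T4 8 rose and 21 fell at 6 h (20.6%, against 16.0% of 8035, 3.41% and 12.6%), 9 and 2 at 24 h (7.8%, against 5.24%, 2.2% and 3.04%) and 0 at 72 h (0.0%, against 0.261%; 1 by DESeq2). Of the 25 pairs whose end use was called in the cytoplasm of knockdown cells, 2 rose, 8 fell and 15 were not called in total RNA. Of the 10 in nuclei, 1 rose and 9 were not called. None of the 6 pairs called after T4 was called in total RNA at the same time. These counts of total RNA were sensitive to single libraries: leaving one out gave 3 to 18 in LM2 cytoplasm (6, 6 and 4 without LM2 libraries 1, 2 and 3, and 3 and 6 without Par libraries 1 and 2), 2 to 4 in LM2 nuclei, 14 to 26 in knockdown nuclei (15 without gCTRL library 2, 14 without gHNRNPC library 3), 16 to 28 at 6 h of T4 (19, 16 and 19 without DMSO libraries 1, 2 and 3) and 3 or 4 at 24 h whichever library was left out. With library number as a block, the LM2 nuclear count was 2 instead of 5.

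Genes of RNA processing were read from 3 lists. Of 27 cleavage and polyadenylation factors tested, 3 rose and 3 fell in cytoplasm after the knockdown and 1 rose in nuclei. Over all genes tested 11.7% rose and 11.7% fell in that cytoplasm, and 8.43 and 5.7% in nuclei. With T4 at 6 h 1 rose and 8 fell of 25 (3.41 and 12.6% of all genes), with a median of −0.45 against −0.11 over all genes, and at 24 h and 72 h 0 were called. Of 24 hnRNP genes, HNRNPC included, 2 rose and 5 fell in knockdown cytoplasm and 1 and 3 in nuclei. In LM2 against Par cytoplasm 0 rose and 6 fell (3.98 and 6.92% of all genes), and in nuclei 0 were called (1.15 and 1.08%). This cytoplasmic comparison of total RNA was the one in which the paired genes had 20 calls, 2 with library totals and 3 to 18 without 1 library; the list was not refitted that way. Of 14 SR genes 1 rose and 1 fell in knockdown cytoplasm, and 2 and 1 at 6 h of T4. Among list genes with a pair of ends, PABPN1, the nuclear poly(A)-binding protein, was more proximal in nuclei of gCTRL cells (66.1, 60.3 and 70.5% distal in cytoplasm, 41.8, 51.8 and 46.3% in nuclei; −1.14 ± 0.29, adjusted p = 0.00643). SRSF11 was too (64.3, 72.3 and 66.7% against 50.2, 47.9 and 40.4%; −1.30 ± 0.31, adjusted p = 0.00389). In both genes all nuclear libraries were lower. Neither these 2 nor SRSF4 or the cytoplasmic poly(A)-binding protein PABPC1 changed its use of ends after the knockdown by the test. The proximal end of PABPN1 was followed by a run of 6 A within 20 bases, whose part in its values was not tested.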

How the data were processed

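The authors deposited expected counts from Salmon in 3 tables, whose entries are transcript ends or genome positions; Salmon 0.14.1 and hg38 are named in the submitters' processing notes, and other settings are not given in the sources used here. Of their entries 98.3 to 98.8% were whole numbers, and all were rounded before testing. Ends came from GENCODE 29, and 56493 of 71604 transcript ends matched it in ID and version. Positions were assigned to whichever gene's transcript precedes them in the listing, where chromosome and strand match; most positions lie outside that transcript in GRCh38, the reason was not tested, and this bears on which genes qualified, on the genes compared with and on total RNA per gene, not on the reads of the pairs. Entries without a gene, 0.934 to 4.23% of reads, were left out. Sequences are those of the GENCODE 29 transcripts. A pair shares its last exon where the proximal end lies inside the last exon of the distal transcript.

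For each gene the pair of entries with the highest means was tested with edgeR 4.0.16 (R 4.3.3), quasi-likelihood, as end by group with a term per library, over all groups of a table. P-values were Benjamini-Hochberg adjusted over all ordered pairs. Total RNA, the sum of all entries of a gene, was tested with edgeR after its expression filter and TMM scaling. Each value rests on the reads at a pair, so intervals cover counting error only. Members and lists were chosen with earlier results of these data known. Alternatives were DESeq2 1.42.0, limma 3.58.1 (pseudocounts 1 and 5), a minimum of 50 or none, any transcript version, pairs with 90% of reads in whole-number entries, only the groups compared, pairs without incomplete ends, a shared upstream boundary of the last exon, library totals, a replicate block, and leaving out libraries. Scripts were tested on simulated counts. Named are, in each comparison, up to 5 called pairs of largest change per direction and class or, where fewer than 2 were called, the 2 of smallest p, pairs called in both fractions after the knockdown (up to 12), the 3 of highest mean, widest and narrowest distance per class, and pairs in the lists; the text describes a selection of them, and 1 pair and 1 sequence are not reported here. Same-numbered libraries deviated together (every correlation over 0.1) only for LM2 and Par nuclei (0.269 to 0.882) and for DMSO and T4 at 72 h (0.228 to 0.834), a pairing seen in the data and not given by the labels.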

Additional observations from a re-analysis of the deposited data

Results flagged for a closer look

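The effect of T4 on the share of distal reads differed between harvests in 2 pairs by the test of the difference itself. For MED22 the effect at 72 h minus that at 6 h was −4.27 on the log2 scale (adjusted p = 0.00374, edgeR), from +3.65 at 6 h to −0.62 at 72 h. For TOP3A the difference was −3.94 (adjusted p = 0.00379, edgeR), from +3.11 at 6 h to −0.83 at 72 h. Both differences passed in all 12 fits that left out 1 library. Both pairs had a hexamer at the proximal end and none at the distal end. With T4 and DMSO, 24.7% of the MED22 reads and 46.8% of the TOP3A reads lay in whole-number entries, and the part of divided reads in these differences was not tested.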

How the results depend on the processing

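For LM2 against Par cells in cytoplasm, 0 pairs were called in the reported fit, 7 by DESeq2, 3 by limma with a pseudocount of 5, 2 with a replicate block, 12 with whole-number entries only, 4 with a minimum mean of 50, 2 without a minimum, 3 with any transcript version, 32 with only the groups compared and 20 without both nuclear libraries numbered 2. In nuclei 1 was called without a minimum. Between fractions Par had 22 calls, 14 with a minimum of 50 and 51 without both nuclear libraries numbered 2, and LM2 had 64, 21 with a minimum of 50 and 115 with any transcript version. After the knockdown 25 in cytoplasm became 14 by limma with a pseudocount of 1, 15 with a replicate block, 12 with a minimum of 50 and 11 without one, and 10 in nuclei became 5 and 2 with a minimum of 50 and without one. Between fractions 74 in gCTRL cells became 25 with a minimum of 50, and 37 in gHNRNPC cells became 17 with whole-number entries and 17 with a minimum of 50. The difference of the knockdown effect was called once (1) with a minimum of 50. At 6 h of T4 3 calls became 6 and 5 by limma with pseudocounts of 1 and 5, 0 with whole-number entries, 6 without a minimum and 5 with any version. At 24 h 3 became 6 by DESeq2, 0 with a replicate block, 0 with a minimum of 50, 1 without one and 17 with only the groups compared. Between 24 and 6 h 1 was called with any version, and between 72 and 6 h 2 became 0 with whole-number entries, 1 with a minimum of 50 and 4 with any version. In total RNA, LM2 cytoplasm had 20 calls and 2 with library totals, and LM2 nuclei 5, with 0 by library totals and 2 with a replicate block. T4 at 24 h had 11, with 18 by DESeq2, 4 by library totals and 6 with a replicate block, and T4 at 72 h 0, with 1 by DESeq2. The cause of these changes was not tested, except that a minimum of 50 or whole-number entries leave fewer pairs.

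Leaving out single libraries gave 0 to 10 calls for LM2 against Par in cytoplasm, 3 to 28 and 45 to 68 between fractions of Par and LM2, 13 to 30 and 1 to 8 after the knockdown in cytoplasm and nucleus, 52 to 68 and 26 to 42 between fractions of gCTRL and gHNRNPC, 2 to 5 and 0 to 1 for T4 at 6 and 24 h, 0 to 1 between 24 and 6 h and 2 to 3 between 72 and 6 h. In total RNA the ranges were 3 to 18 and 2 to 4 (LM2 cytoplasm and nucleus), 40 to 56 and 14 to 26 (knockdown), and 16 to 28, 3 to 4 and 0 (T4 at 6, 24 and 72 h). No direction was reversed. Over single genes, 1642 values stayed on their side of the threshold, 204 lost it and 16 gained it. Where same-numbered libraries deviate together, in LM2 and Par nuclei and at 72 h of T4, the block changed no other count. Elsewhere the labels give no pairing, and the correlation rule cannot decide whether there was one. For gHNRNPC cytoplasm and nuclei the correlations of same-numbered libraries were 0.0489 to 0.394. The split by shared upstream boundary of the last exon gave 79, 110 and 65 same-last-exon pairs. Depth limits pairs whose lower end has few reads.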
